A study of Mus musculus with 15 samples.

Results

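Mitochondrially encoded genes and Gm28438, a nuclear copy of mt-Nd3, were described in RNA sequencing of hematopoietic stem cells (HSCs), the self-renewing cells at the base of blood formation, sorted from mouse bone marrow. The 10 genes were taken by symbol from a table of 20696 genes: 9 genes of the mitochondrial genome (mt-Nd1, mt-Nd2, mt-Nd3, mt-Nd4, mt-Nd5, mt-Nd6, mt-Cytb, mt-Co1 and mt-Co3) and Gm28438, which the annotation lists as an unprocessed pseudogene on chromosome 1. Their choice rested on earlier results of the same table: mt-Nd3 and Gm28438 had differed between the libraries labelled aged Thbs1 knockout and both control groups, so the values of these 2 genes in those contrasts are a description with no test.

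The 15 libraries formed 3 groups of 5. The labels name mice aged 18 months with a knockout of Thbs1, the gene of the matrix protein thrombospondin 1, control mice aged 18 months and control mice aged 3 months. The labels do not say in which cells the knockout acts, which strain the mice were, or whether each library came from a separate animal. The p-values therefore cover the variation among these libraries, which may be technical. Values are FPKM, fragment counts scaled to transcript length and library size, so that levels of different genes can be compared.

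Some facts of the libraries bear on all group comparisons. The libraries labelled knockout did not have less Thbs1 than the controls: it averaged 10.41 ± 7.84 FPKM there, 2.896 ± 3.84 FPKM in aged controls and 4.242 ± 5.28 FPKM in young controls (SD, n = 5 each). The table carries a title and a library name for each column, and GEO's own sample descriptions pair them differently: for 5 columns both names led to the same sample, and for 10 columns they led to samples of different groups. Columns were grouped by title. Reads in genes, recovered from the step size of the FPKM values, came to between 16.65e6 and 28.62e6 per library. All 9 HSC markers looked at, among them Kit, Procr and Mecom, were above 0 in all 15 libraries. Their summed level was 670.8 to 862.5 FPKM in libraries labelled knockout, 952.4 to 1061 FPKM in aged controls and 792.8 to 847.2 FPKM in young controls. Of markers of other cells, the B-cell gene Cd79b stood at 29.22 to 63.83 FPKM in every library, while Ms4a1, another B-cell gene, reached at most 0.21 FPKM. The 3 erythroid markers summed to 8.11 to 65.4 FPKM in libraries labelled knockout, 9.27 to 70.87 FPKM in aged controls and 10.03 to 40.52 FPKM in young controls. The 2 neutrophil markers in the table summed to 1.88 to 21.64 FPKM in libraries labelled knockout, 2.07 to 8.09 FPKM in aged controls and 2.72 to 8.03 FPKM in young controls. The only T-cell marker in the table, Cd3g, reached at most 0.36 FPKM, since Cd3e and Trbc2 have no row. The 3 endothelial and stromal markers summed to at most 0.35 FPKM. The part of such cells in the results was not tested.

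The mitochondrial genome is a small circle that is transcribed from both strands into long precursors, which are cut at the tRNAs into messenger RNAs and ribosomal RNAs. Its protein-coding genes supply hydrophobic core subunits of the respiratory chain; all other subunits are encoded in the nucleus. Stretches of this genome have been copied into nuclear chromosomes during evolution, and most such copies are taken to be inactive. HSCs are known for relying largely on glycolysis and for keeping mitochondrial respiration low while quiescent.

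The pair on which the description turns is nearly identical in sequence. mt-Nd3 (ENSMUSG00000064360) lies at chrM:9459-9806 on the plus strand of GRCm38 and has 348 bases. Gm28438 (ENSMUSG00000101939) lies at chr1:24612775-24613119 on the minus strand and has 345 bases. The copy matches positions 1 to 345 of mt-Nd3 with 1 mismatch (99.71% identity), the substitution T3C, counted from 1 at the 5′ end of the mt-Nd3 transcript, and the last 3 bases of mt-Nd3 lie beyond it. The first 60 bases of each GENCODE transcript are shown because they hold the single difference, which is in capitals; the mt-Nd3 stretch is chrM:9459-9518 and the Gm28438 stretch chr1:24613060-24613119, read on the minus strand.
mt-Nd3: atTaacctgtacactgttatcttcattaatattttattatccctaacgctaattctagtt
Gm28438: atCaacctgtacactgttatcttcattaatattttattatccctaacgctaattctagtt
Within the annotated transcripts, a fragment that covers neither position 3 nor the last 3 bases of mt-Nd3 carries the same letters in both genes. The table gives no reads, so the base they carried at position 3 is unknown, and its part in the results below was not tested.

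mt-Nd3 encodes a small subunit of complex I, the enzyme that passes electrons from NADH to ubiquinone. It had 0.27, 0.44, 0.15, 0.00 and 0.59 FPKM in libraries labelled knockout 1 to 5, against 20.86, 20.29, 24.19, 11.17 and 15.64 FPKM in aged controls 1 to 5 and 11.93, 14.93, 17.08, 14.15 and 11.14 FPKM in young controls 1 to 5. Every library labelled knockout lay far below all 10 control libraries. These values stand for 2, 3, 1, 0 and 5 reads in the libraries labelled knockout, 89 to 177 reads in aged controls and 77 to 146 reads in young controls.

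Gm28438 showed the opposite split. It had 36.98, 51.47, 18.08, 16.66 and 30.68 FPKM in libraries labelled knockout 1 to 5, against 0.64, 0.00, 0.00, 0.00 and 0.12 FPKM in aged controls 1 to 5 and 0.31, 0.24, 0.40, 0.10 and 0.21 FPKM in young controls 1 to 5. The groups did not overlap: the lowest library labelled knockout was at 16.66 FPKM and the highest control at 0.64 FPKM. In reads, Gm28438 had 122 to 346 per library labelled knockout and 0 to 4 per control library.

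Added over libraries, the pair held 11 mt-Nd3 reads and 1151 Gm28438 reads in those labelled knockout, against 1258 mt-Nd3 reads and 15 Gm28438 reads in the 10 controls. As a share of the summed FPKM of both genes, mt-Nd3 made up 0% to 1.887% in libraries labelled knockout, 97.02% to 100% in aged controls and 97.47% to 99.3% in young controls. On the log2(FPKM + 1) scale the fitted difference from aged controls was -3.89 for mt-Nd3 and 4.69 for Gm28438, and from young controls -3.53 and 4.55. The pseudocount of 1 sets much of these sizes, because one side of each contrast is close to 0: with a pseudocount of 0.1 the differences from aged controls were -5.80 and 7.34.

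**Figure D1:**
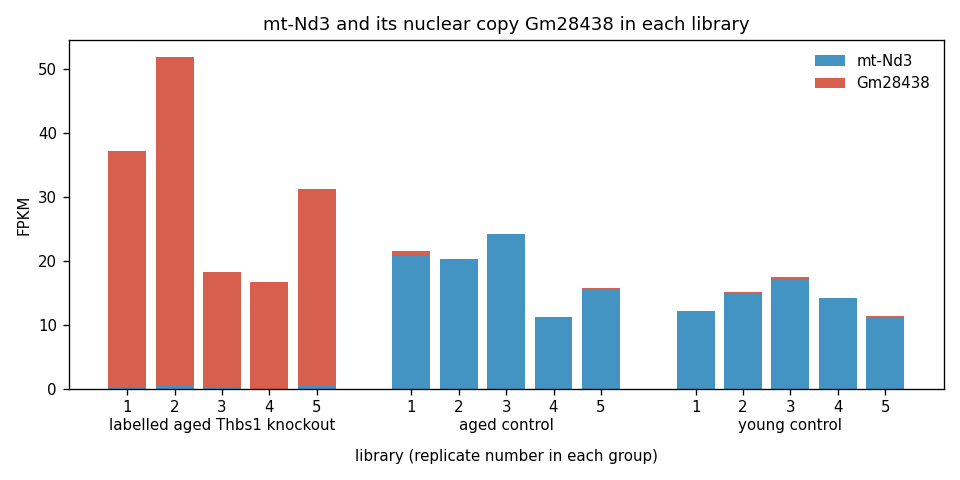
FPKM of mt-Nd3 (blue) and Gm28438 (red), stacked, for replicates 1 to 5 of each group. Bars of libraries labelled aged Thbs1 knockout are almost wholly Gm28438, those of aged and young controls almost wholly mt-Nd3, and the heights of the bars overlap between groups.

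The sum of both genes differed far less than either gene alone. It came to 37.25, 51.91, 18.23, 16.66 and 31.27 FPKM in libraries labelled knockout 1 to 5, against 21.5, 20.29, 24.19, 11.17 and 15.76 FPKM in aged controls and 12.24, 15.17, 17.48, 14.25 and 11.35 FPKM in young controls. Libraries 3 and 4 labelled knockout lay within the range of the aged controls, and libraries 1, 2 and 5 above it. The means were 31.06 ± 14.5 FPKM in libraries labelled knockout, 18.58 ± 5.14 FPKM in aged controls and 14.1 ± 2.43 FPKM in young controls (SD, n = 5 each).

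As a log2 difference of the mean log2(sum + 1), this put the libraries labelled knockout 0.63 above aged controls and 0.98 above young controls, given without a test for the reason above. Without libraries 2 and 5 labelled knockout, which had the highest shares of reads in ribosomal RNA genes (2.155% and 0.6818%, against 0.1572% to 0.3701% in the other libraries), these differences were 0.31 and 0.65. Set against mt-Nd2, another complex I gene of the same genome, the sum was 28.3 to 57.39 FPKM per 100 FPKM of mt-Nd2 in libraries labelled knockout, 40.64 to 77.87 in aged controls and 28.39 to 60.98 in young controls, so the 3 ranges overlapped.

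Grouping by library name broke up the split. By name, the knockout group holds 3 columns titled knockout and 2 titled aged control, and the aged control group 2 titled knockout and 3 titled young control. mt-Nd3 then averaged 5.51 ± 7.38 FPKM in the knockout group, 8.616 ± 7.83 FPKM in aged controls and 18.44 ± 4.93 FPKM in young controls (SD, n = 5 each), and libraries rich in mt-Nd3 and libraries rich in Gm28438 stood side by side within each of the aged groups. Gm28438 averaged 13.11 ± 13.1 FPKM in the knockout group by name, 17.83 ± 24.6 FPKM in aged controls and 0.238 ± 0.265 FPKM in young controls.

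The copy of mt-Nd3 belongs to a block of nuclear copies. On chr1:24611535-24616197 the annotation places, one after the other, Gm28439, Gm10222, Gm28438, Gm28437, Gm10925, Gm28661 and Gm29216, copies of mt-Nd4, mt-Nd4l, mt-Nd3, mt-Co3, mt-Atp6, mt-Co2 and part of mt-Co1. Gm28437 matches positions 1 to 783 of mt-Co3, Gm10925 positions 1 to 678 of mt-Atp6 and Gm28661 positions 1 to 681 of mt-Co2, each with 0 mismatches. Gm29216 matches positions 1054 to 1545 of mt-Co1 with 6 mismatches (98.78% identity).

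Among the 5 copies with values, the share of the copy parted the groups for Gm28438. Gm28438 took 98.11% to 100% of the sum with its mitochondrial gene in libraries labelled knockout, 0% to 2.977% in aged controls and 0.7018% to 2.533% in young controls. Gm28437 took 47.78% to 53.14% of the sum with mt-Co3 in libraries labelled knockout, 45.1% to 69.67% in aged controls and 38.39% to 56.04% in young controls. No base within positions 1 to 783 tells these 2 genes apart, and the ranges of the 3 groups overlapped.

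Gm10925, the copy of mt-Atp6, took 45.76% to 66.67% in libraries labelled knockout, 43.1% to 100% in aged controls and 66.67% to 82.43% in young controls, on levels of at most 1.36 FPKM for the copy. Gm28661, the copy of mt-Co2, took 46.39% to 69.23% in libraries labelled knockout, 33.67% to 83.78% in aged controls and 25% to 81.61% in young controls. Gm29216, which differs from mt-Co1 at 6 bases and covers its last part, took 0.1554% to 0.314% in libraries labelled knockout, 0.1312% to 0.1983% in aged controls and 0.1351% to 0.2244% in young controls. For these 4 copies the ranges of the groups overlapped, apart from the shares of Gm10925 in libraries labelled knockout and young controls, which met at 66.67%.

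**Figure D2:**
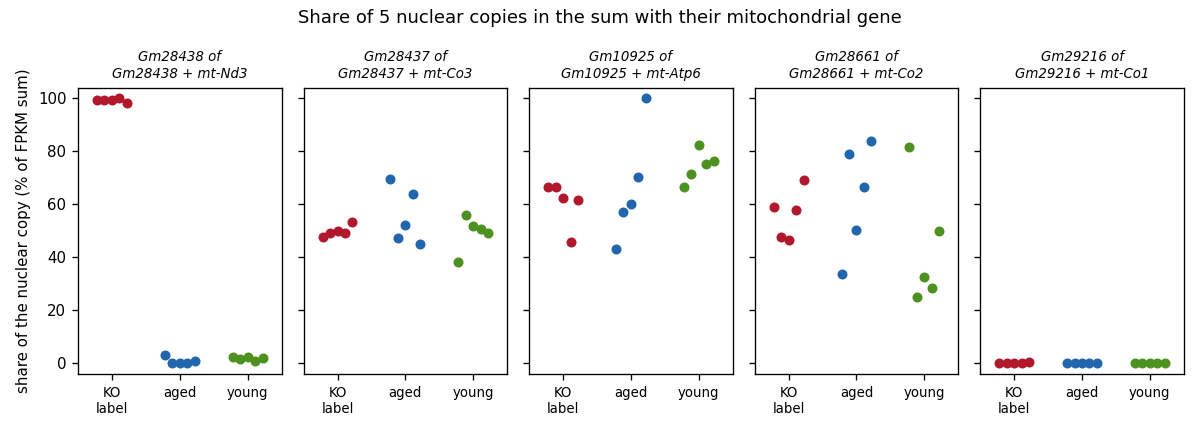
Share of each of 5 nuclear copies in the FPKM sum of the copy and its mitochondrial gene (percent, vertical axis), 1 point per library, by group. Gm28438 lies at 98.11% to 100% in libraries labelled aged Thbs1 knockout and at 0% to 2.977% in the controls, while the other 4 copies show no such parting.

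Nuclear copies also limit what the levels of the other genes mean. Of the 50-base windows of mt-Nd3, 98% are also found in nuclear transcripts of the annotation, and the share is 99.9% for mt-Co3, 62.2% for mt-Nd4 and 51.1% for mt-Co1. It is 8.19% for mt-Nd2, 7.61% for mt-Nd5 and 0% for mt-Nd1, mt-Nd6 and mt-Cytb. How the submitters counted fragments that match several genes is not given in the sources used here.

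mt-Co1, the catalytic subunit of cytochrome c oxidase (complex IV), had the highest level, with a median of 974 FPKM over 15 libraries (507.1 to 3085), and lay above mt-Nd1 in 15 of 15. mt-Nd1, a complex I subunit at the quinone site, had a median of 267.8 FPKM and mt-Cytb, the cytochrome b of complex III, 246.7 FPKM. These neighbours did not differ beyond their spread, since mt-Nd1 was above mt-Cytb in 7 of 15 libraries. The proton-pumping complex I subunits mt-Nd4, mt-Nd2 and mt-Nd5 followed with medians of 38.64, 34.93 and 26.07 FPKM. mt-Nd4 was above mt-Nd2 in 10 of 15 libraries, mt-Nd2 above mt-Nd5 in 14 and mt-Nd5 above mt-Nd6 in 13.

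mt-Nd6, the protein gene on the opposite strand, had a median of 18.77 FPKM and exceeded mt-Nd3 (11.93 FPKM) in 12 of 15 libraries, a count that includes the 5 labelled knockout. mt-Nd5 and mt-Nd6 overlap by 14 bases on opposite strands, and whether reads were counted by strand is not given in the sources used here. mt-Co3, another core subunit of complex IV, had the lowest median of the 9, 2.29 FPKM (1.39 to 4.12). mt-Co2 and mt-Atp6, which share 100% and 99.5% of their windows with nuclear transcripts, lay lower still, at 0.06 to 1.65 FPKM and 0 to 0.68 FPKM over the 15 libraries. Among the protein-coding and ribosomal RNA genes with values, those with 98% or more shared windows thus had the lowest medians. This is a description across a few genes of one genome. The tRNA genes were not searched for shared windows, and the median of mt-Nd3 includes the 5 libraries labelled knockout. mt-Co1, with 51.1% shared windows, had the highest level of the 9.

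**Figure D3:**
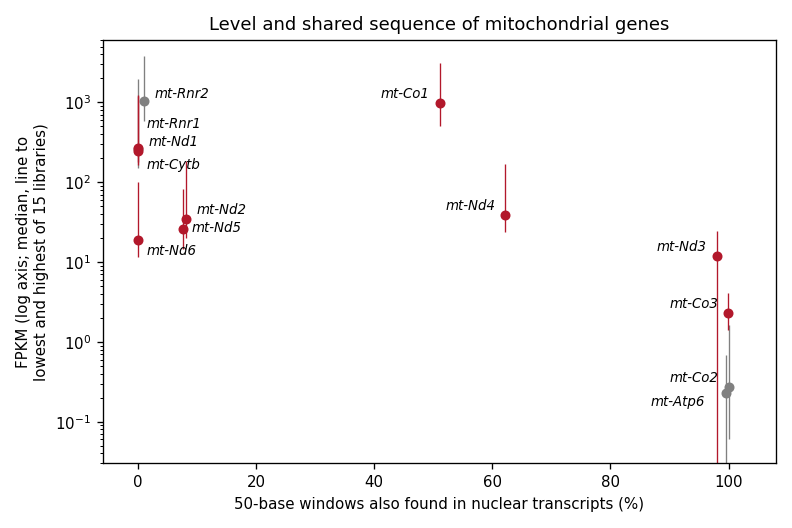
FPKM on a log axis (median over 15 libraries, with a line to the lowest and highest library) against the percent of 50-base windows also found in nuclear transcripts, for the described genes (red) and other genes of the mitochondrial genome (grey). The lines of mt-Nd3 and mt-Atp6 run off the axis because their lowest library is at 0. The 4 genes with 98% or more shared windows have the lowest medians of the genes shown, which include no tRNA genes.

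The next question was whether the 8 other mitochondrially encoded genes differed in HSCs labelled aged Thbs1 knockout from those of aged controls. In the fit across all 11345 genes with a mean of at least 1 FPKM, 176 genes (1.55%) passed the limma test at an adjusted p under 0.05, and 0 of these 8 did; since the set was proposed with this contrast known, nothing is read from the comparison of these shares. At an unadjusted p under 0.05 there were 3 of the 8, and 1469 (12.9%) of all genes. All 8 fitted differences were positive, with a median of 0.66 on the log2 scale against -0.03 over all genes tested. The sizes rested in part on library 2 labelled knockout: without it the median was 0.35, and mt-Nd2 differed by 0.43, mt-Nd4 by 0.35, mt-Nd5 by 0.16, mt-Nd6 by 0.19, mt-Cytb by 0.33 and mt-Co1 by 0.34. mt-Nd1 and mt-Co3 kept more of their size: without that library mt-Nd1 differed by 0.67 and mt-Co3 by at least 0.39, against 1.01 and 0.47 with every library. Without libraries 2 and 5 labelled knockout the median was 0.34, and mt-Nd5 and mt-Nd6 differed by 0.01 and 0.00. In that fit mt-Nd1 differed by 0.70 and mt-Co3 by at least 0.39. In bulk RNA, a difference in the number of cells of a kind and one in RNA per cell cannot be told apart.

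mt-Nd1 had 691, 1206, 295, 268 and 349 FPKM in libraries labelled knockout 1 to 5, against 237, 233, 365, 178 and 194 FPKM in aged controls 1 to 5. Libraries 1 and 2 labelled knockout lay above every aged control and the other 3 within their range. The difference was 1.01 (SE 0.35) on the log2 scale, with a limma adjusted p of 0.192. With sex in the model it was 1.17 with a limma adjusted p of 0.0256, so the call depends on that term. The count over all genes was then 239 in place of 176.

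mt-Nd2 had 84.2, 183, 33.7, 29.0 and 58.2 FPKM in libraries labelled knockout 1 to 5, against 37.7, 40.4, 59.5, 26.4 and 20.2 FPKM in aged controls 1 to 5. Again libraries 1 and 2 were the high ones. The difference was 0.82 (SE 0.39, limma adjusted p = 0.384), and with sex in the model 1.03 (limma adjusted p = 0.0497).

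Library 2 labelled knockout was also the highest library for the other genes. In libraries labelled knockout, mt-Nd4 averaged 75.83 ± 55.7 FPKM, against 40.18 ± 13.2 FPKM in aged controls (log2 difference 0.71, limma adjusted p = 0.409). mt-Nd5 averaged 42.48 ± 23.8 FPKM, against 29.8 ± 11.8 FPKM in aged controls. For mt-Nd6 the means were 41.95 ± 33.7 FPKM in libraries labelled knockout and 25.35 ± 14 FPKM in aged controls, and for mt-Cytb 523.1 ± 442 FPKM in libraries labelled knockout and 249.3 ± 61.4 FPKM in aged controls. mt-Co1 averaged 1632 ± 971 FPKM in libraries labelled knockout and 1005 ± 418 FPKM in aged controls, and mt-Co3 3.126 ± 0.711 FPKM in libraries labelled knockout and 1.986 ± 0.53 FPKM in aged controls (SD, n = 5 each throughout).

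That library was the highest of all 15 for each of these 8 genes, with 170 FPKM of mt-Nd4 and 1238 FPKM of mt-Cytb. The 9 mitochondrially encoded genes summed to 3772, 6068, 1450, 1569 and 1930 FPKM in libraries labelled knockout 1 to 5, to 952.8 to 2435 FPKM in aged controls and to 1070 to 2083 FPKM in young controls. The share of reads in ribosomal RNA genes was also highest in library 2, at 2.155%, and its part in the result was not tested. Library 5 labelled knockout had the next highest share, 0.6818%, with a sum within the range of the aged controls. For library 1, with the second highest sum, that share was 0.3168%, within the range of the controls.

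**Figure D4:**
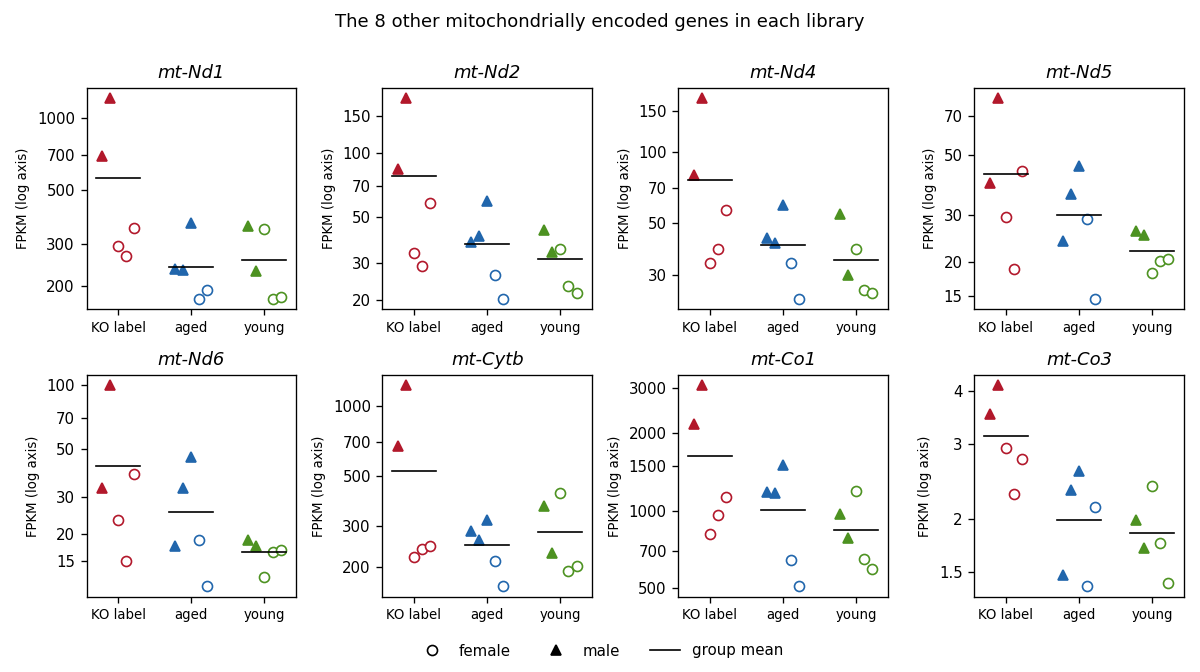
FPKM (log axis) of the 8 other mitochondrially encoded genes in each library, by group; triangles are male libraries, open circles female ones, and the line is the group mean. The highest point in every panel is a male library labelled aged Thbs1 knockout, and the range of the 3 female libraries of that label overlaps the range of the controls in every panel.

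Against young controls, 185 of 11345 genes (1.63%) passed in libraries labelled knockout, and again 0 of the 8; both contrasts share the libraries labelled knockout. All 8 differences were positive, with a median of 0.86 against -0.06 over all genes tested; the median was 0.54 without library 2 labelled knockout and 0.47 without libraries 2 and 5. At an unadjusted p under 0.05 there were 7 of the 8, or 1 without library 2, and 2401 (21.2%) of all genes in the fit with every library. mt-Co3 had 3.53, 4.12, 2.93, 2.29 and 2.76 FPKM in libraries labelled knockout 1 to 5, against 1.99, 1.71, 2.39, 1.76 and 1.42 FPKM in young controls 1 to 5. The groups crossed at 2.29 FPKM in library 4 labelled knockout and 2.39 FPKM in young control 3, and the difference of 0.52 (SE 0.17) had a limma adjusted p of 0.108.

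mt-Nd1 differed by 0.93 from young controls (SE 0.35, limma adjusted p = 0.157), with means of 561.8 ± 398 FPKM in libraries labelled knockout and 257.7 ± 86.9 FPKM in young controls (SD, n = 5 each). mt-Nd6 differed by 1.01 (SE 0.39, limma adjusted p = 0.162), mt-Nd2 by 1.0, mt-Nd4 by 0.90, mt-Co1 by 0.81, mt-Nd5 by 0.77 and mt-Cytb by 0.59. With sex in the model mt-Nd2 passed (1.0, limma adjusted p = 0.0399), and 429 of all genes did, in place of 185. Without library 4 labelled knockout, mt-Nd5 (limma adjusted p = 0.0461), mt-Nd6 (0.0471) and mt-Co3 (0.0484) passed, and the count over all genes was then 676 in place of 185.

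The comparison of aged with young controls was a contrast of age that the choice of genes had not used. It was not balanced for sex: by library name there were 2 female and 3 male aged controls, and 3 female and 2 male young controls. Gm28438 had 0 to 4 reads in each of these libraries and cannot show a difference, so the counts here are over the 9 mitochondrially encoded genes. None of the 9 passed the limma test, while 501 of 11345 genes (4.42%) did. With sex in the model 0 of the 9 passed, and 625 of all genes did. The difference of mt-Nd2 then moved from 0.18 to -0.03 and that of mt-Nd4 from 0.20 to 0.03. At an unadjusted p under 0.05 there were 0 of the 9, and 2264 (20%) of all genes. mt-Nd3 had the values given above, with means of 18.43 ± 5.08 FPKM in aged controls and 13.85 ± 2.38 FPKM in young controls (SD, n = 5 each). Aged controls 1, 2 and 3, which are male, lay above every young control. Aged controls 4 and 5, which are female, lay within the range of the young controls. The log2 difference was 0.36 with an SE of 0.19 (limma adjusted p = 0.302), and with sex in the model 0.31 (limma adjusted p = 0.36). Fitted within sexes it was 0.66 in males and -0.07 in females. Limma's test of that gap between the sexes did not pass (limma adjusted p = 0.207).

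For the sum of mt-Nd3 and Gm28438 the difference between aged and young controls was 0.345, with an exact two-sided permutation p of 0.143 (smallest possible 0.0079). Without aged control 4, a female library and the lowest aged one, it was 0.505 with an exact permutation p of 0.0317. That exclusion makes the sexes less balanced between the groups. Leaving out any other single library of these groups gave an exact permutation p of 0.103 to 0.294. Over the 9 genes the median difference was 0.19 against -0.02 over all genes tested, and 7 of 9 were positive. The largest was that of mt-Nd6 (0.44, SE 0.39, limma adjusted p = 0.512), with 25.35 ± 14 FPKM in aged controls and 16.46 ± 2.34 FPKM in young controls. mt-Nd6 had 17.6, 32.9, 46.1, 18.8 and 11.4 FPKM in aged controls 1 to 5, against 18.8, 17.6, 12.6, 16.5 and 16.9 FPKM in young controls 1 to 5. Thus 2 aged libraries, which are male, were high, and the others did not exceed the highest young one. mt-Nd1 (-0.08) and mt-Cytb (-0.14) had negative differences.

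**Figure D5:**
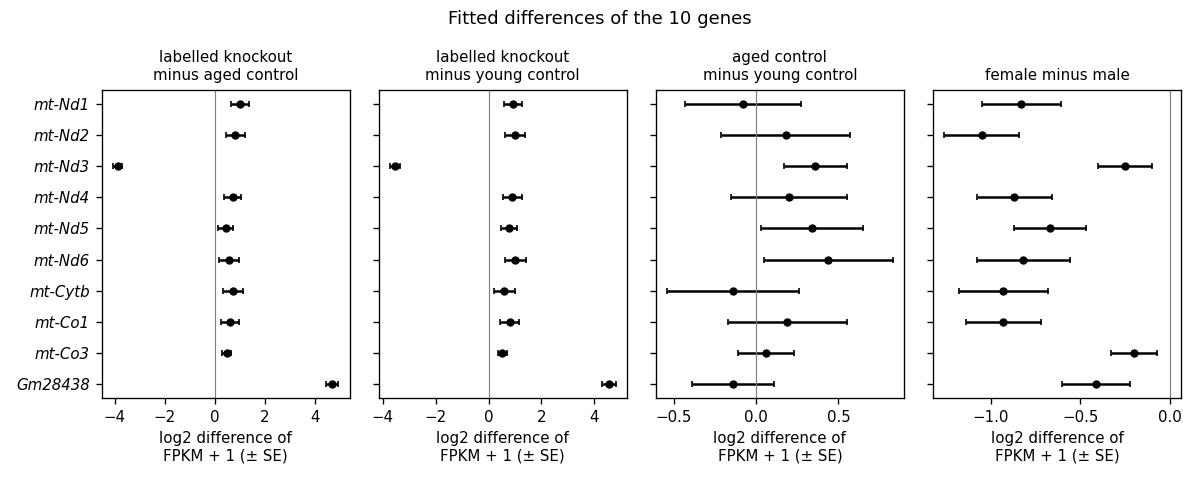
Fitted log2 differences of FPKM + 1 with standard errors for the 10 genes in 4 comparisons (the horizontal scales differ). mt-Nd3 and Gm28438 stand apart in both comparisons with the libraries labelled knockout, where they are shown as a description; aged minus young control differences lie between -0.14 and 0.44, and female minus male differences between -1.05 and -0.20.

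Female and male libraries were compared with the groups in the model, a contrast that the choice of genes had not used. The library names give 8 female and 7 male libraries: 3 female and 2 male libraries labelled knockout, 2 female and 3 male aged controls, and 3 female and 2 male young controls. In every group the males carry the lower replicate numbers, so sex cannot be told apart from a factor that ran with the numbering. Over all genes, 1468 of 11345 (12.9%) passed, and 371 (3.27%) passed with a lower level in females. mt-Nd3 had 0 to 5 reads in the libraries labelled knockout and Gm28438 had 0 to 4 in the controls, so neither could show a sex difference in those groups and nothing is read from their values. Of the 8 other genes, 7 were lower in females and none was higher.

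mt-Nd2 had the largest difference, a log2 difference of -1.05 with an SE of 0.21 (limma adjusted p = 0.00899). It lay at 20.24 to 58.23 FPKM in females (median 27.69) and at 34.07 to 183.4 FPKM in males (median 43.11). Within groups, females had 29.03 to 58.23 FPKM and males 84.24 and 183.4 FPKM in libraries labelled knockout. In aged controls females had 20.24 and 26.35 FPKM and males 37.74 to 59.52 FPKM. The sexes did not overlap in these 2 groups, and in young controls they met, with 21.57 to 34.93 FPKM in females and 34.07 and 43.11 FPKM in males.

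mt-Co1 differed by -0.93 (SE 0.21, limma adjusted p = 0.0143), with 810.8 ± 258 FPKM in 8 females and 1555 ± 809 FPKM in 7 males. mt-Nd4 differed by -0.87 (limma adjusted p = 0.0167), with 34.55 ± 10.8 FPKM in females and 68.25 ± 47.6 FPKM in males. mt-Nd1 differed by -0.83 (limma adjusted p = 0.0224) and mt-Cytb by -0.93 (limma adjusted p = 0.0271), and their means were 248.2 ± 75.3 and 237.2 ± 78.8 FPKM in females, against 474 ± 361 and 482.4 ± 364 FPKM in males.

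The smallest margins were those of mt-Nd5 (-0.67, limma adjusted p = 0.0413) and mt-Nd6 (-0.82, limma adjusted p = 0.0486). mt-Co3 did not pass (-0.20, limma adjusted p = 0.311). The median over the 8 was -0.85, against 0.02 over all genes tested.

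These calls rested partly on single libraries. Of the 8 genes, 3 passed without library 2 labelled knockout, 4 without library 3 labelled knockout and 4 without aged control 5. The count over all genes moved with them: it was 591, 890 and 529 of 11345 in these 3 fits, in place of 1468. Without libraries 2 and 5 labelled knockout 7 of the 8 and 2327 of all genes passed. In the 10 control libraries alone 223 of all genes passed, and 1 of the 8, mt-Nd2 (-0.74, limma adjusted p = 0.0401). mt-Nd2 passed in all 19 settings tried for this contrast. The share of reads in ribosomal RNA genes was 0.264% ± 0.172 in females and 0.569% ± 0.701 in males (SD, n = 8 and 7), and its part in the result was not tested. No gene of the 8 passed limma's test of whether a group difference itself differed between the sexes. The lowest unadjusted limma p, 0.00461, was that of mt-Cytb for libraries labelled knockout against aged controls. Its limma adjusted p was 0.9998, though the fitted difference was 1.66 in males and 0.33 in females. Each group holds only 2 or 3 libraries of a sex, and the share of all genes that passed is not given. Agreement of the sexes is therefore not read from this test.

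Other rows of the mitochondrial genome and the nuclear genes that serve it were set beside these values. Of 12 other mitochondrial genome genes in the table, 8 were tested, and 0 passed in any of the 3 group comparisons. With 1.55% to 4.42% of all genes passing in these comparisons, nothing is read from 0 of 8. mt-Rnr2, the large ribosomal RNA, had the highest level, 1982 ± 1200 FPKM in libraries labelled knockout, 1267 ± 508 FPKM in aged controls and 946.6 ± 246 FPKM in young controls (SD, n = 5 each). Differences between libraries labelled knockout and aged controls were 0.55 for mt-Rnr2 and 0.84 for mt-Rnr1, the small ribosomal RNA, and ran from -0.54 to 0.39 for the tRNA genes mt-Ta, mt-Tc, mt-Te, mt-Tm, mt-Tp and mt-Tq. Of these tRNA genes, mt-Tp came nearest to the threshold against young controls (1.10, SE 0.29, limma adjusted p = 0.0647).

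Between sexes, mt-Rnr2 was lower in females (-0.89, SE 0.23, limma adjusted p = 0.0228), with 1033 ± 591 FPKM in 8 females and 1816 ± 925 FPKM in 7 males. Of 3 tested genes in the list of nuclear copies, Gm29216 was lower in females (-0.64, SE 0.15, limma adjusted p = 0.0167), at 1.505 ± 0.948 FPKM in females and 2.65 ± 1.17 FPKM in males. Gm28437 (-0.16) and Gm15564 (-0.74, limma adjusted p = 0.0524), an antisense gene on chromosome 16 kept in this list, did not pass. No 50-base window of the mitochondrial protein-coding and ribosomal RNA genes was found in Gm15564, so it is not shown here to be a copy. None of the 3 genes passed in the group comparisons, and nothing is read from a count over so few genes.

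Complex I also needs subunits from the nucleus. Of 7 nuclear core subunits, 29 accessory subunits and 13 assembly factors tested, 0 passed in any group comparison, and the medians of the libraries labelled knockout minus aged controls were 0.01, 0.09 and -0.03. Among 13 tested genes of mitochondrial DNA upkeep and transcription and 15 of mitochondrial RNA processing and stability, 0 passed in the group comparisons, with medians of 0.12 and -0.03 in the same contrast. Over all genes, 1.55% passed against aged controls, 1.63% against young controls and 4.42% between aged and young controls. Nothing particular to the lists is read from their counts of 0.

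Between sexes, members of these nuclear lists that passed were higher in females. They were 1 of 7 core subunits, 0 of 29 accessory subunits, 2 of 13 assembly factors, 2 of 13 upkeep and transcription genes and 4 of 15 RNA processing genes. Together these were 9 of 77 (11.7%), near the 1097 of 11345 (9.67%) that were higher in females over all genes, and nothing particular to the lists is read from the count. The list medians were -0.21, -0.16, 0.07, 0.15 and 0.29, in the order of the counts above, so those of the core and accessory subunits ran the other way. Tfam, which packages mitochondrial DNA and starts its transcription, had 15.42 ± 4.43 FPKM in females and 9.641 ± 1.25 FPKM in males (0.55, SE 0.13, limma adjusted p = 0.0158). Grsf1, an RNA-binding protein of mitochondrial RNA granules, had 26.21 ± 2.42 FPKM in females and 17.57 ± 4.58 FPKM in males (0.56, limma adjusted p = 0.00898). Trmt10c, a subunit of mitochondrial RNase P, differed by 0.72 (limma adjusted p = 0.0142), Mtpap, the mitochondrial poly(A) polymerase, by 0.60 (limma adjusted p = 0.0215) and Mterf3, of the mitochondrial transcription termination factor family, by 0.39 (limma adjusted p = 0.0394). Of complex I genes, Ndufs1, a core iron-sulfur subunit, differed by 0.43, and the assembly factors Tmem126b and Ndufaf4 by 0.53 and 0.45.

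The genes whose pattern over the 15 libraries was most like that of mt-Nd3 were Cd59b, a complement regulator (Pearson r = 0.919 of log2(FPKM + 1)), Kcnip3, a calcium-binding protein (0.890), and Tuba1a, an alpha-tubulin (0.886). Kcnip3 had 2.728 ± 1.07 FPKM in libraries labelled knockout, 13.03 ± 2.4 FPKM in aged controls and 8.498 ± 0.752 FPKM in young controls (SD, n = 5 each). For Gm28438 they were Pcna-ps2, a pseudogene of Pcna (0.966), Gm7658 (0.942) and Tmem87a, a multi-pass membrane protein (0.923). Pcna-ps2 had 26.3 ± 5.43 FPKM in libraries labelled knockout, 0.94 ± 0.409 FPKM in aged controls and 1.092 ± 0.198 FPKM in young controls. It had 18.51 FPKM at the lowest in libraries labelled knockout and 1.36 FPKM at the highest in controls. These genes were picked for their likeness to mt-Nd3 or Gm28438, so a parting of their groups follows from the choice. The values are descriptions over libraries that share their group labels: mt-Nd3 and Gm28438 themselves had r = -0.959.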

How the data were processed

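The deposited table holds FPKM values as the authors computed them, rounded to 2 decimals, in 20696 rows and 15 columns of samples. Per the labels' protocols, HSCs were sorted into TRIzol-LS and libraries made with SMART-Seq v4 from total RNA. The submitters' processing notes name FastQC 0.11.5, STAR, edgeR and GRCm38 (mm10), with no order or settings; the sources used here do not give the counting rules, strand or handling of fragments with several matches. Columns were grouped by sample title, and sex was read from the library name in the header.

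All 20696 identifiers matched GENCODE M21, which gave positions, lengths and transcript sequences. Reads per gene and library size were recovered from FPKM steps of genes of at most 250 nucleotides; in other genes of up to 500 nucleotides, 96.97% to 98.07% of values came out whole within 0.1 reads. Values were analysed as log2(FPKM + 1), which understates changes of low genes. Genes with a mean of at least 1 FPKM (11345) were fitted with limma 3.58.1 in R 4.3.3, with a trend in the prior variance, all 15 libraries, two-sided tests and Benjamini-Hochberg adjustment over all of them (threshold 0.05); sex was added to the group model for the female minus male contrast. All 10 described genes passed the filter, Gm28438 through the libraries labelled knockout and mt-Nd3 through the controls. Sums of the pair were compared by exact permutation. Sequence identity and shared windows were computed with Python 3.11.15. Scripts were tested on simulated data.

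The genes described and the lists were chosen with earlier results of these data known. Besides the 10 genes, the text names by rule the 3 genes most like mt-Nd3 and like Gm28438, tested rows of the 2 lists of mitochondrial genome genes and nuclear copies, and, from each list, passing genes among the 3 with the smallest p in a contrast. Alternatives were other pseudocounts, filters, scalings, sex as a covariate, voom on recovered reads, a replicate block, grouping by library name, and leaving out libraries; the restrictions of the female minus male contrast to the controls and to 13 libraries were chosen after seeing the data.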

Additional observations from a re-analysis of the deposited data

Results flagged for a closer look

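In a look at 33 sets of 5 libraries, 2 single libraries stood apart from the rest of their group (gap to the nearest library over the group's range above 0.71); chance flags about 1 set in 20. mt-Nd6 was at 99.98 FPKM in library 2 labelled aged Thbs1 knockout, with a gap of 0.723 of the range, and the next highest library of that label was at 38.51 FPKM. Gm28438 was at 0.64 FPKM in aged control 1, with a gap of 0.812 of the range, which rests on 4 reads.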

How the results depend on the processing

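Grouping the columns by library name changed most of the group results. The counts of genes past the threshold were then 0 (knockout label against aged control), 15 (knockout label against young control) and 0 (aged against young control), mt-Nd3 differed by -0.81 and -2.53, Gm28438 by 0.34 and 2.43, and the sum of both by -0.33 and -0.04 in the first 2 comparisons. In the same 2 comparisons, a pseudocount of 0.1 gave mt-Nd3 differences of -5.80 and -5.42 and Gm28438 differences of 7.34 and 6.39, and voom on recovered reads gave -6.09 and -5.72, and 7.71 and 6.62. Both genes kept their direction in these 2 comparisons under every setting tried. A mean of at least 5 FPKM left 113, 120 and 265 genes past the threshold in the 3 group comparisons, with 7210 genes tested. With sex as a covariate, 239 genes passed against aged controls and 429 against young controls. Of the 8 other mitochondrial genes, 2 and 1 passed in these 2 comparisons. Leaving out libraries 2 and 5 labelled knockout gave 1030 genes between aged and young controls and 124 between the knockout label and young controls. Leaving out 1 library at a time gave 95 to 229, 98 to 676 and 311 to 943 genes, 0 to 3 of the 8 genes against young controls, 3 to 7 of the same 8 between sexes, mt-Nd3 differences of -4.04 to -3.78 and -3.61 to -3.44, Gm28438 differences of 4.48 to 4.88 and 4.34 to 4.73, and pair sum differences of 0.42 to 0.82, 0.77 to 1.16 and 0.24 to 0.50. In the control libraries, 1 of the 8 passed between sexes; mt-Nd6 missed the threshold with a pseudocount of 0.1 and mt-Cytb with quantile normalization. The cause of these shifts was not tested.

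Replicate numbers were not used as pairs in the main fit. The deviations of same-numbered libraries had correlations over 0.1 in 3, 2 and 1 of 5 pairs. Because males carry the lower numbers in every group, these correlations cannot tell pairing apart from sex. A replicate block gave 152, 158 and 499 genes in the 3 group comparisons and an exact permutation p of 0.125 for the pair sum between aged and young controls (smallest possible 0.062), and changed no call of the 10 genes. Depth limits the low values: mt-Nd3 in libraries labelled knockout and Gm28438 in controls rest on at most 5 reads each.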
